A study of Mus musculus with 4 samples.

Results

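H3K4me3 regions that lie beside H3K27me3 without overlapping it were examined in rosette stem cells, mouse pluripotent cells held between the naive and the primed state. A region of the CGR8 H3K4me3 list was taken when it was under 5000 bp wide, lay on chromosomes 1 to 19 and overlapped an H3K4me3 region of the line R1. It also had to overlap no H3K27me3 region of either line and to lie within 5000 bp of a CGR8 H3K27me3 region. These rules left 1122 bordering regions of the 25241 H3K4me3 regions of CGR8. Of the 25241, 20656 met the conditions on width, chromosome and R1 H3K4me3, and 7061 of those overlapped H3K27me3. The bordering regions are 8.25% of the 13595 that did not. The members were chosen by the positions and widths of called regions in the lists of both lines. Their number, their gaps in CGR8 and their lack of overlap therefore describe the rule and were not tested.

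The samples were embryonic stem cells of the lines CGR8 (strain 129/Ola) and R1 (strain 129), grown for 8 days on coated plates in N2B27, a serum-free medium. The medium was supplemented with LIF (leukaemia inhibitory factor), with IWP2 at 2 µM to stop cells from secreting WNT ligands, and with PD325901, an inhibitor of the kinase MEK, at 1 µM. Both lines had the same treatment, and no untreated cells were analysed here. Chromatin immunoprecipitation and sequencing was done for each mark in 1 library of each line. A comparison of CGR8 with R1 has no replicate within a line, and values over both lines have n = 2. Regions of 1 library are not replicates, so no test was made across regions. Exact binomial intervals, given at 95%, cover counting error only. The identity of the cells was not checked against marker genes, because the regions carry no gene names here.

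H3K4me3 is placed at promoters by COMPASS-type methyltransferases. It is found at active genes and, together with H3K27me3, at many silent developmental genes of pluripotent cells. H3K27me3 is placed by Polycomb repressive complex 2, spreads over broad regions and is associated with silent genes. Where both meet, a promoter is called bivalent. H3K4me3 that stops short of a Polycomb region is a different arrangement, in which a promoter-type mark sits next to the repressive mark in the called lists.

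CGR8 had 14575 regions of H3K27me3 and 25241 of H3K4me3, and R1 had 12511 and 24618. The lowest score in the H3K4me3 list was 38.5 for CGR8 and 37.3 for R1, and in the H3K27me3 list 70.6 and 59.4. The score is the authors' own value for a region. It has no stated unit and is used here to rank regions and to compare medians within a list. For regions paired between the lines it is also used as a log2 ratio of R1 over CGR8, less the median ratio. Scores of both lines are given side by side for named regions. Total read numbers were not used here and the depth is unknown. A mark that is missing from a list was not called, which does not show that it was absent. Positions are on build mm9, counted from 1. Bounds lie on a grid of 200 bp, which is the resolution of every gap and width below.

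Short gaps were the most frequent ones. The median gap was 2400 bp, with quartiles of 800 and 3800 bp. In 87 regions (7.75%) the gap was 0 bp, so that the H3K4me3 call and the H3K27me3 call took up neighbouring windows. A gap of at most 1000 bp was found in 338 regions (30.1%). The next steps of 1000 bp held 180, 183, 219 and 202 regions, a nearly even spread. The first step includes the gap of 0 bp and so holds an additional grid value that the later steps lack. The plot of gaps shows the highest counts in the first few windows. Past the limit, 26 regions lay at 5200 bp and 37 at 10000 bp, against 39 at 5000 bp. Both marks are called on the same 200 bp grid, so overlap or distance of less than a window cannot be seen.

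**Figure D1:**
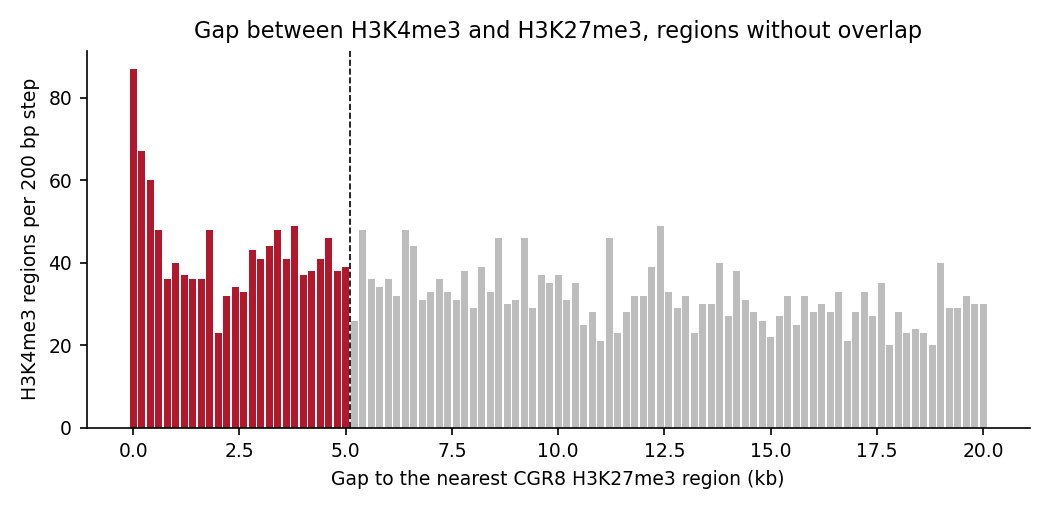
Number of H3K4me3 regions without H3K27me3 overlap (vertical axis) in each 200 bp step of the gap to the nearest CGR8 H3K27me3 region (horizontal axis, kb). Red bars are the 1122 bordering regions and grey bars lie beyond the 5000 bp limit (dashed line); the bar at 0 holds 87 regions and stands above all others.

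H3K27me3 lay on a single side of 1067 bordering regions (95.1%) and on both sides of 55 (4.90%, interval 3.71% to 6.33%). A flank was counted on a side when a CGR8 H3K27me3 region lay within 5000 bp of that end. Among the 1067 it was at the lower coordinate in 535 and at the higher coordinate in 532. On the open side, the nearest H3K27me3 region lay a median of 73200 bp away, with quartiles of 25600 and 181850 bp, in the 1064 regions that had one on that side. In most members, then, called H3K27me3 was close at one end and distant at the other. In 100 of the 1067 (9.37%) another H3K4me3 region lay between the region and its flank.

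Other H3K4me3 regions were near. At least 1 other H3K4me3 region lay within 5000 bp of 475 bordering regions (42.3%, interval 39.4% to 45.3%). The share was 23.6% among 6289 far regions, which met the same conditions on width, chromosome and R1 but lay over 50 kb from every H3K27me3 region of either line. It was 27.2% among the 7061 regions that overlapped H3K27me3 and 30.4% among the 6184 that were neither bordering, overlapping nor far. For single-side regions the next H3K4me3 region lay a median of 8400 bp away towards H3K27me3 and 22800 bp away on the open side. It was nearer on the H3K27me3 side in 696 of 1065 (65.4%) with unequal distances.

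Bordering regions were narrower than far regions in both lines. Their median width in CGR8 was 1800 bp, with quartiles of 1200 and 2600 bp, against 2200 bp in far regions, with quartiles of 1600 and 3000 bp. In the R1 regions that overlapped them the medians were also 1800 bp and 2200 bp. The R1 values are for regions paired singly between the lines, 1100 of the bordering and 6145 of the far regions. The ratio of medians was 0.818 in each line. The rule bars overlap with H3K27me3, which a wider region close to H3K27me3 is more likely to have. Far regions face no such limit, so the difference in width may follow at least partly from the rule. Regions of at most 1600 bp made up 44.9% of bordering regions and 30.2% of far ones, while regions from 3200 to 4800 bp made up 14.0% and 23.7%. Regions overlapping H3K27me3 had a median of 1800 bp in CGR8 and 1600 bp in R1, so bordering regions were nearer in width to these than to far regions.

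The median score was lower as well, but against far regions weighted to equal widths it was slightly lower in CGR8 and higher in R1. The median score of bordering regions was 224 in CGR8, with quartiles of 84.6 and 1015, and 232 in their R1 partners. Far regions had medians of 518 and 551. The ratio of medians was 0.427 ± 0.00871 (SD, n = 2 lines). The R1 value is for partners of regions chosen from CGR8, so this SD leaves out the spread from choosing regions in each line. The same ratio was 0.668 when R1 took the place of CGR8 in the rule, and it was 0.538 and 0.700 when the rule was applied to the lists of CGR8 or of R1 alone. It was 0.781 in the higher-scoring 50% of each list. When the far regions were weighted to the widths of the bordering ones, it was 0.971 in CGR8 and 1.13 in R1. The spread of scores within the group was wide, from 38.5 to 5428 in CGR8. Regions overlapping H3K27me3 had the same median width in CGR8, 1800 bp, but higher median scores, 361 in CGR8 and 385 in R1. The ratio of bordering to overlapping medians was 0.621 in CGR8 and 0.602 in R1. Regions that were neither bordering, overlapping nor far had medians of 432 and 458.

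Within classes of width the medians lay close together except in the widest. From 200 to 1000 bp the median CGR8 score was 67.4 in 189 bordering regions and 67.4 in 689 far ones. From 1200 to 1600 bp it was 115 in 315 and 117 in 1210. From 1800 to 2200 bp it was 503 in 261 and 548 in 1413, and from 2400 to 3000 bp 1085 in 200 and 1181 in 1485. In these classes the ratio lay between 0.919 and 1.00 in CGR8 and between 0.946 and 1.02 in R1. From 3200 to 4800 bp it was 1420 in 157 bordering regions against 1932 in 1492 far ones, a ratio of 0.735, and 0.852 in R1. No class in R1 had a ratio as high as the weighted 1.13. In both groups the score rose steeply with width.

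**Figure D2:**
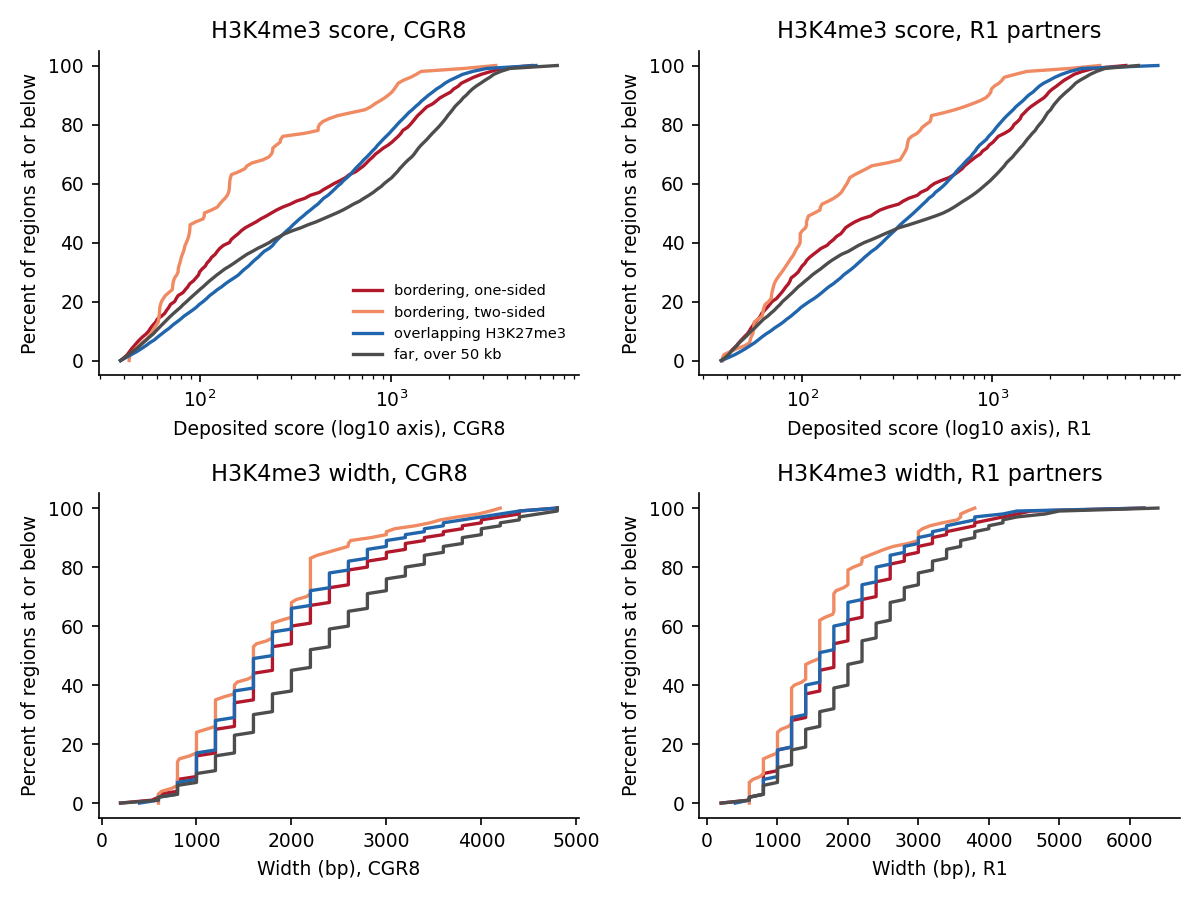
Percent of H3K4me3 regions (vertical axes) at or below a given deposited score (upper panels, log10 axis) or width in bp (lower panels), in CGR8 (left) and in the R1 regions paired with them (right). Lines stand for regions flanked on a single side, regions flanked on both sides, regions overlapping H3K27me3 and far regions; the far line lies to the right of both bordering lines in width, with medians of 2200 bp against 1800 bp and 1600 bp.

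The share of regions that border H3K27me3 was lowest at high H3K4me3 scores. Regions without H3K27me3 overlap that were paired singly between the lines were ranked by score and placed in 10 equally large classes. By CGR8 score, 10.7% of the lowest class bordered H3K27me3, 11.1% of class 3, 7.23% of class 7 and 4.82% of the highest. By R1 score the shares were 9.26%, 11.2%, 7.01% and 4.89%. The intervals of the highest class, 3.73% to 6.11% and 3.80% to 6.20%, lay below those of class 3. Width was not held constant in these classes.

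**Figure D3:**
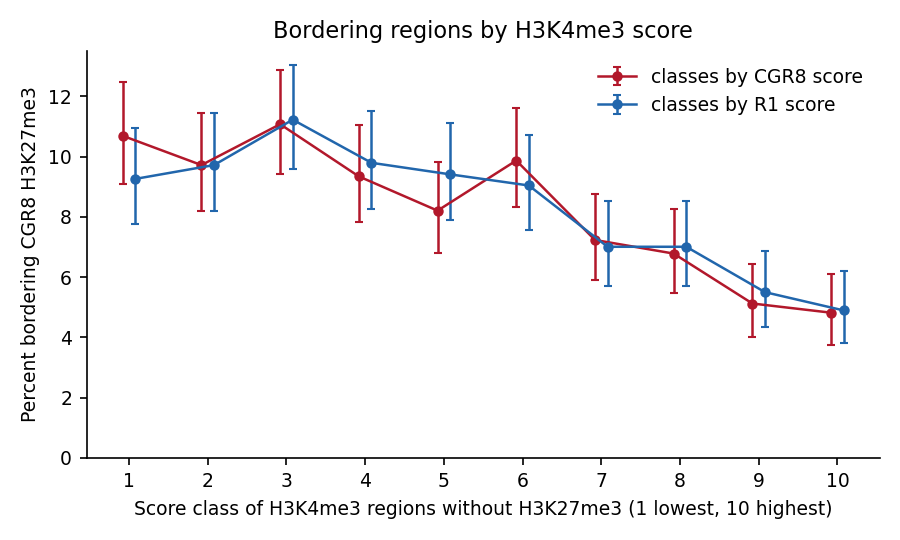
Percent of H3K4me3 regions without H3K27me3 overlap that border CGR8 H3K27me3 (vertical axis), by class of H3K4me3 score from 1, the lowest, to 10, the highest (horizontal axis), with classes made from CGR8 scores (red) or R1 scores (blue). Points are shares and bars are exact binomial intervals at 95%; the share ends at 4.82% and 4.89% in class 10.

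Regions flanked on both sides had the lowest median score of the groups compared, and had the lowest median width in CGR8. The median of the 55 was 106 in CGR8, with quartiles of 72.2 and 265, and 116 in 54 R1 partners. Regions flanked on a single side had medians of 237 and 241, a ratio of 0.463 ± 0.0230 (SD, n = 2 lines). Here too the R1 value is for partners of regions chosen from CGR8, and the SD leaves out that choice. The median width of regions flanked on both sides was 1600 bp against 1800 bp in both lines. In R1 it was equal to that of regions overlapping H3K27me3. Regions flanked on both sides must fit between their flanks without overlap, so their lower median width may follow at least partly from the rule. From 1800 to 2200 bp the median score was 97.1 in 16 regions flanked on both sides and 574 in 245 flanked on a single side in CGR8, and by R1 width it was 363 in 11 and 629 in 246. From 200 to 1000 bp the regions flanked on both sides scored higher, with 72.2 against 67.3 in CGR8 and 93.6 against 66.4 in R1. From 1200 to 1600 bp it differed between the lines, with 161 against 114 in CGR8 and with the higher median, 110, in single-side regions in R1. From 2400 to 3000 bp the order also differed between the lines: 5 regions flanked on both sides had a median of 1292 against 1081 in CGR8, and 5 had 907 against 1279 in R1. From 3200 to 4800 bp 4 regions flanked on both sides had the lower median in each line, with 634 against 1471 in CGR8 and 415 against 1686 in R1. The lower median of regions flanked on both sides was thus found in both lines only from 1800 bp to 2200 bp and from 3200 bp to 4800 bp, and their number limits these comparisons.

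The space between the flanks of these 55 regions had a median of 6600 bp, with a shortest of 1200 bp and a longest of 11600 bp. The nearer gap had a median of 1000 bp and the wider gap one of 3200 bp. At least 1 gap was 1000 bp or less in 30 of the 55, and both were in 5. In 8 of them another H3K4me3 region lay inside the space. Both flanks overlapped an H3K4me3 region of their own in 19 cases, 1 flank did in 22 and neither did in 14.

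The 5 shortest spaces are shown in the map of such places, and they held H3K4me3 regions of 600 to 1600 bp in spaces of 1200 to 2600 bp. On chromosome 10 a region from 61065201 to 61065800 (600 bp, score 142) had H3K27me3 600 bp below it and abutting above it, a space of 1200 bp. Its R1 partner, from 61065201 to 61066200, overlapped R1 H3K27me3. On chromosome 11 a region from 102316601 to 102317800 (score 240) filled all but 200 bp of a space of 1400 bp, and its R1 partner from 102316801 to 102318400 (score 340) also ran into R1 H3K27me3. In both places the edges of R1 H3K27me3 lay within 200 bp of those of CGR8, and the upper edge of H3K4me3 lay 400 and 600 bp further out in R1.

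On chromosome 4 a region from 153201601 to 153202400 (score 66.4) lay 800 and 200 bp from its flanks, and in R1 the gaps were 4200 and 400 bp. On chromosome 11 a region from 116518001 to 116519600 (score 180) had gaps of 0 and 200 bp. Its R1 partner ran to 116521800 with a score of 358, and the upper flank was not called there: the next R1 H3K27me3 on that side was 31600 bp away. On chromosome 2 a region from 75441201 to 75442000 (score 88.9) had gaps of 1800 and 0 bp in CGR8 and of 8800 and 2200 bp in R1. The 5 places thus kept their H3K4me3 in both lines, as the rule demands, while 1 of them had H3K27me3 within 5000 bp on both sides of an R1 partner free of overlap.

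**Figure D4:**
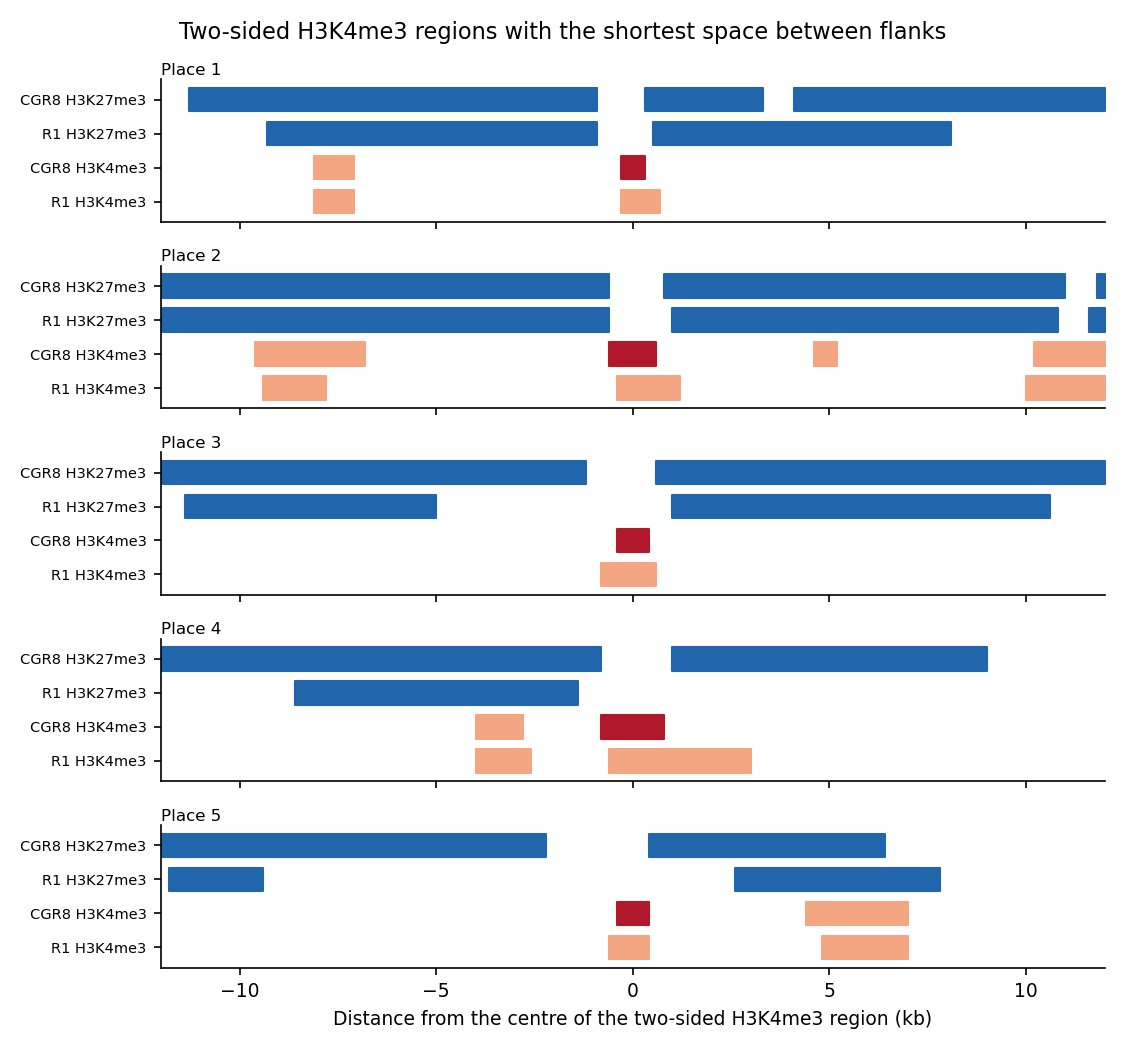
Called regions of both marks in both lines at the 5 regions flanked on both sides with the shortest space between flanks, by distance from the centre of the CGR8 H3K4me3 region (horizontal axis, kb). Blue bars are H3K27me3, dark red bars the bordering H3K4me3 region and light bars other H3K4me3 calls, with a row for each line and mark; places 1 to 5 have spaces of 1200, 1400, 1800, 1800 and 2600 bp.

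The highest scores among regions flanked on both sides were found in wider spaces, of 4600 to 9200 bp. On chromosome 6 a region from 83003001 to 83006000 scored 3512 in CGR8 and 3674 in R1, with gaps of 2400 and 3800 bp in CGR8 and of 12400 and 3800 bp in R1. The next was on chromosome 7 from 69563201 to 69565800, with scores of 1443 and 1160 and gaps of 1600 and 600 bp in CGR8 and 3200 and 4400 bp in R1. On chromosome 2 a region from 84666401 to 84668800 scored 1292 and 1542, with gaps of 2600 and 4200 bp and of 600 and 4200 bp. These 3 kept a score above 1000 in both lines, and both gaps stayed within 5000 bp in R1 in the last 2 of them. The others named by score lay on chromosome 10, from 126956801 to 126960200 (1097 and 907) and from 79782001 to 79784200 (1052 and 1102), and both were flanked on both sides in R1 as well.

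Most bordering regions also bordered H3K27me3 in R1. The R1 distance was measured from the R1 H3K4me3 partner, and the rule used R1 H3K27me3 only to bar overlap with the CGR8 interval. In R1, H3K27me3 lay within 5000 bp without overlap in 725 of 1122 (64.6%, interval 61.7% to 67.4%). Over all 20656 eligible regions this share was 5.95%, and over the 13595 without H3K27me3 overlap in either line 7.43%. Both of these include the bordering regions themselves. Among 898 regions from 5200 to 10000 bp away in CGR8 it was 8.57%. A further 27 bordering regions (2.41%) had an R1 partner that overlapped R1 H3K27me3.

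The side was kept almost always. Of 679 single-side regions that bordered H3K27me3 in R1, 674 had it on the same side (99.3%), 18 of them on both sides, and 5 on the opposite side alone. Of the 364 that had no H3K27me3 within 5000 bp and no overlap in R1, the flanking CGR8 region itself had no R1 overlap in 233 (64.0%). In the other 131 it was called in R1, but over 5000 bp from the R1 H3K4me3 partner. Where R1 had H3K27me3 on that side at all, it lay a median of 20600 bp away among these 364 regions. Loss of the border in R1 thus came more often with a flank not called in R1 than with one called there. The CGR8 H3K27me3 list is the longer of the 2. Shifts of the H3K27me3 edge and of the H3K4me3 edge were not told apart.

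Gaps were similar in size between the lines. In the 674 regions with the same side, the median gap was 2200 bp in CGR8 and in R1, and the median of the difference was 200 bp, wider in R1. The size of the difference was at most 400 bp in 338 (50.1%) and at most 1000 bp in 525 (77.9%). It was wider in R1 in 345, narrower in 237 and equal in 92. A limit of 5000 bp in both lines and the floor of 0 bp bound these differences, and no correlation is drawn from them. Called H3K27me3 regions had a median width of 7600 bp in CGR8 and 6400 bp in R1. Whether this bears on the wider gaps was not tested. Agreement was 69.5% for gaps up to 1000 bp, 70.6%, 67.8% and 63.0% in the next steps, and lowest from 4200 to 5000 bp, next to the limit (interval 42.9% to 57.1%, n = 202).

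**Figure D5:**
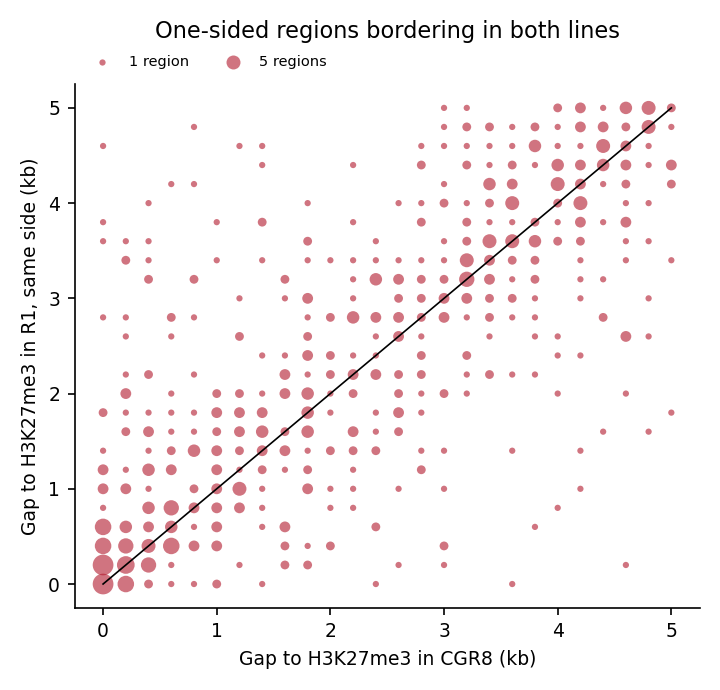
Gap to H3K27me3 in R1 (vertical axis, kb) against the gap in CGR8 (horizontal axis, kb) for the 674 regions flanked on a single side in CGR8 and on that side in R1. Dot area stands for the number of regions and the line marks equal gaps; 338 regions lie within 400 bp of it.

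Agreement in R1 was higher beside H3K27me3 regions of higher score and differed little by the score of the H3K4me3 region. With single-side regions placed in 4 equal classes by the score of their flank, 44.2% of the lowest class bordered H3K27me3 in R1 (interval 38.1% to 50.4%), 58.8% and 71.8% of the middle ones and 79.8% of the highest (interval 74.5% to 84.4%). Placed by their own H3K4me3 score, the shares were 62.9%, 60.3%, 66.9% and 64.4%. Beside a flank that overlapped H3K4me3 the share was 76.7% of 579, and beside a flank without H3K4me3 it was 48.2% of 488. This order held in each of the 4 classes of flank score, with 62.4% against 35.7% in the lowest and 81.9% against 67.5% in the highest, the last resting on 40 regions.

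Regions flanked on both sides bordered H3K27me3 on at least 1 side in R1 in 46 of 55 (83.6%, interval 71.2% to 92.2%). On both sides they did so in 25 (45.5%, interval 32.0% to 59.4%). The share was 1.69% of the 1067 single-side regions and 0.353% of all eligible regions, which include the bordering ones and those overlapping H3K27me3. In 21 of the 55 a single side remained, in 6 there was none and in 3 the R1 partner overlapped H3K27me3. Counted by flank, 71 of 110 (64.5%) had R1 H3K27me3 within 5000 bp on their side, and 63.6% of single-side regions had it on at least 1 side.

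The H3K4me3 score of most bordering regions was similar in both lines, with a wider spread in those flanked on both sides. The log2 ratio of R1 over CGR8 score, less its median over all 20181 eligible pairs, had a median of 0.00 in the 1100 bordering pairs, with quartiles of -0.23 and 0.25. It was at least 2-fold higher in R1 in 24 (2.18%), against 1.4% of all eligible pairs, and at least 2-fold lower in 37 (3.36%), against 2.37%. Its SD was 0.47 in bordering pairs, 0.42 in far pairs and 0.38 in pairs overlapping H3K27me3. Among bordering pairs it was 0.45 in the 1046 flanked on a single side, with a median of 0.00, and 0.73 in the 54 flanked on both sides, with a median of 0.18. The quartiles lay closer, at -0.23 and 0.24 for a single side and -0.20 and 0.47 for both sides. The 54 include a pair at -3.52, which widens their SD. Of the 54, 4 (7.41%) were at least 2-fold higher in R1 and 3 (5.56%) at least 2-fold lower, and of the 1046 it was 20 (1.91%) and 34 (3.25%). Width differed by at most 400 bp in 74.9% of bordering and 74.1% of far pairs.

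A few single regions differed more. The lowest R1 score relative to CGR8 was on chromosome 17 from 31014801 to 31019000, flanked on both sides, with a score of 447 in CGR8 and 38.3 in an R1 partner of 1200 bp, -3.52 on the centred log2 scale. This R1 score was near the lowest in the R1 list, 37.3. At this place called H3K27me3 was 1600 and 600 bp away in CGR8 and 34000 and 7800 bp away in R1. The H3K4me3 call was thus narrower and the H3K27me3 calls more distant in R1. The next lowest were on chromosome 11 from 4022201 to 4024600 (237 and 66.4, -1.81) and on chromosome 9 from 50302201 to 50305200 (241 and 78.0, -1.60). The highest R1 scores relative to CGR8 were on chromosome 3 from 145770401 to 145771400 (48.4 and 174, 1.87) and on chromosome 18 from 38376201 to 38377400 (46.0 and 145, 1.68) and from 34854801 to 34855600 (53.2 and 146, 1.48). All 3 had CGR8 scores near the lowest in the list, 38.5.

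The highest-scoring bordering regions were flanked on a single side and had R1 scores of 3323 to 5032. On chromosome 17 a region from 65960401 to 65965000 scored 5428 in CGR8 and 5032 in R1. Its flank lay 4400 bp above it in CGR8, and in R1 the next H3K27me3 on that side was 153400 bp away. On the same chromosome a region from 35086401 to 35090600 scored 5142 and 4007, with gaps of 1400 and 1800 bp. The next were on chromosome 11 from 97887001 to 97890600 (4180 and 4127, gaps of 4200 and 4400 bp), on chromosome 8 from 73419001 to 73422600 (4158 and 3566, gaps of 1800 and 1000 bp) and on chromosome 1 from 137661801 to 137666200 (4080 and 3323, gaps of 4600 and 5800 bp). Of these 5, 3 bordered H3K27me3 in both lines.

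The H3K27me3 regions beside the members numbered 1088, 7.54% of the 14435 CGR8 regions on chromosomes 1 to 19. Their median width was 7200 bp against 7600 bp for all, and their median score 140 against 132. H3K4me3 overlapped 53.4% of them, against 41.1% of all. R1 H3K27me3 overlapped 77.8% of them, against 66.9% of all. Among regions with H3K4me3 the shares found in R1 were 91.6% beside members and 91.8% of all, and among regions without it 62.1% and 49.6%. The shares were thus nearly equal among regions with H3K4me3 and apart among those without it.

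The edge of H3K27me3 that faced the member was compared with the opposite edge of the same region for 728 single-side members whose flank had a single R1 partner. The facing edge lay within 400 bp in both lines in 47.9% and the opposite edge in 43.7%. It was drawn back by over 1000 bp in R1 in 21.8% and 23.6%, and lay over 1000 bp further out in 7.42% and 12.5%. The median shift was -200 bp at both, towards the inside of the region in R1. The bar on overlap with R1 H3K27me3 limits how far the facing edge can move out, so the last difference follows at least partly from the rule.

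A single H3K27me3 region bordered 1 member in 1003 cases, 2 in 81 and 3 in 4. On chromosome 10 the region from 79760401 to 79780400 (20000 bp, score 1359, 3 H3K4me3 regions inside) had 3 members, from 79754401 to 79757600 (score 3398), from 79758001 to 79759800 (126) and from 79782001 to 79784200 (1052). All 3 bordered H3K27me3 in R1, where they scored 3210, 117 and 1102. A short region on the same chromosome, from 80804601 to 80808000 (3400 bp, score 380), also had 3 members, all bordering in R1. It was abutted below by a region of score 77.0, and those above it scored 158 and 2320. On chromosome 9 the region from 118998601 to 119008600 (score 232) had 3 members with scores of 75.2, 445 and 802, of which 1 bordered H3K27me3 in R1 within 5000 bp.

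The widest flank was unlike the rest. On chromosome 11 an H3K27me3 region from 3026801 to 3100200 (73400 bp) had the highest score of the CGR8 list, 53531, and the R1 region from 3027001 to 3100200 the highest of the R1 list, 41859. It held 10 H3K4me3 regions. A member lay near each end: one from 3022801 to 3026200, 600 bp below it (800 bp in R1), with scores of 718 and 716, and one from 3101201 to 3104800, 1000 bp above it in both lines, with scores of 3327 and 3506. No input library was analysed here, and what sets these scores apart was not tested. The other members beside very wide flanks had low scores in CGR8: 46.0 on chromosome 18 from 38376201 to 38377400 beside 43400 bp, 58.0 on chromosome 5 from 98712201 to 98714400 beside 38400 bp, and 70.1 on chromosome 11 from 114656401 to 114657400 beside 38000 bp.

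Bordering regions were found on all 19 chromosomes. Their share of the regions without H3K27me3 overlap was lowest on chromosome 14, at 4.78%, and highest on chromosome 8, with 83 of 753, and its median was 7.74%. None lay in a block of chromosome 1 where R1 had 565 H3K27me3 regions and CGR8 34.

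At the limit of distance the values inside and outside were alike. The 39 members at exactly 5000 bp had a median score of 294 and a median width of 2200 bp, and the 26 regions at 5200 bp had 293 and 2000 bp. H3K27me3 was bordered in R1 by 10 of the 39 and 9 of the 26. Just inside lay chromosome 2 from 34760201 to 34761600 (score 54.8) and chromosome 3 from 84999001 to 84999800 (145), and just outside chromosome 1 from 74432801 to 74434600 (188) and chromosome 2 from 71710001 to 71713800 (1605). At the limit of width they were further apart: 5 members of 4800 bp had a median score of 2649 and 6 otherwise matching regions of 5000 bp one of 1627. Just inside lay chromosome 1 from 182833001 to 182837800 (1838) and chromosome 7 from 86039001 to 86043800 (3292), and just outside chromosome 6 from 127055601 to 127060600 (1082) and chromosome 7 from 29160001 to 29165000 (1037).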

How the data were processed

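ChIP-seq gave 4 libraries, 1 for each of both marks in CGR8 and in R1. The authors deposited 1 list of regions per library, each with a score of unstated formula. The reads were processed on build mm9 with Bowtie2 2.0.2 (alignment), SICER 1.1 (calling of broad enriched regions) and bedtools 2.20.1, per the submitters' processing notes; what each step did to these lists, its settings, the control and the threshold are not given in the sources. In the lists, gaps under 800 bp between H3K27me3 regions and under 400 bp between H3K4me3 regions do not occur, which shows that calls were joined across shorter gaps and sets which spaces can appear.

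Overlap means at least 1 bp. Gaps run from edge to edge, and abutting regions have a gap of 0 bp. A pair is a CGR8 and an R1 region that overlap only each other. Scores were compared as medians within a list or as log2 ratios of pairs less the median of all eligible pairs. Members and lists were chosen with earlier results of these data known. Named regions are those with the highest scores, the shortest spaces, the widest flanks, the largest changes of score, the H3K27me3 regions with most members and those next to the limits. The gene table at hand is on another build, so no gene name or sequence is given. The scripts were tested on simulated regions. Alternatives changed the distances, the overlap, the score threshold, the merging of calls and the line that defines the members. Python 3.11.15, numpy 2.4.6, pandas 2.3.3, scipy 1.17.1 and matplotlib 3.10.9 were used.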

Additional observations from a re-analysis of the deposited data

Results flagged for a closer look

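Regions outside the rule also bordered H3K27me3, in lower shares than the 8.25% of regions inside it. On the X chromosome, 5 of 460 H3K4me3 regions that met the other conditions lay within 5000 bp of CGR8 H3K27me3 (1.09%, interval 0.354% to 2.52%), and 2 of them bordered H3K27me3 in R1. The lowest share on any of chromosomes 1 to 19 was 4.78%. CGR8 had 138 H3K27me3 regions on the X chromosome. Among 1235 regions of at least 5000 bp on chromosomes 1 to 19 that overlapped R1 H3K4me3 and no H3K27me3, 41 lay within 5000 bp of CGR8 H3K27me3 (3.32%, interval 2.39% to 4.48%). These 41 had a median width of 6000 bp and a median score of 2469, and 26 of them bordered H3K27me3 in R1. Both counts are listed because these regions enter none of the comparisons above.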

How the results depend on the processing

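Every ratio of medians in the alternatives stayed below 1 except the score ratio by R1 values at equal widths, 1.13. Shares were compared by size only and have no direction that could reverse. With limits of 2000 bp and 10000 bp in place of 5000 bp there were 518 and 2020 bordering regions, flanked on both sides in 3.09% and 8.61% and bordering in R1 in 55.4% and 73.7%; the score ratio was 0.508 at 10000 bp. The higher-scoring 50% of each list gave 297 regions, 2.36% flanked on both sides, a width ratio of 0.923, a score ratio of 0.781 and the same side in 100% of 188. With the lines swapped the score ratio was 0.668 and 68.9% bordered in the other line. The score ratio was 0.424 with at least 50% of a region covered in R1, 0.453 with far regions over 100000 bp away, 0.555 per kb and 0.971 at equal widths (1.13 by R1 values). Measured from the CGR8 interval, 68.2% bordered in R1. Leaving out either line gave 1366 to 1471 regions, 5.93% to 6.32% flanked on both sides, width ratios of 0.818 to 0.900 and score ratios of 0.538 to 0.700; agreement between lines then has no value. No paired analysis was possible because no result comes from a test. The causes of these changes were not tested beyond the weighting of the score by width. Merging H3K27me3 regions less than 1000 bp apart and leaving out the block of chromosome 1 with many R1 calls changed no count of members. Neither could do so, because the shortest space between flanks of a member was 1200 bp and the block held no member. Depth per library is unknown, which limits what a missing call shows.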

Other observations

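The bordering set was also drawn from R1, with the roles of the lines exchanged. It held 1034 regions, 50 of them flanked on both sides (4.84%). Of the 1122 bordering regions of CGR8, 699 (62.3%) overlapped one of this set, and of the 1034, 697 (67.4%) overlapped one of CGR8.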
